A study of Homo sapiens with 16 samples.

Results

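769-P is a cell line from a human clear cell renal cell carcinoma (ccRCC), and the comparison described here set its KDM5C mutant populations against its control population. The 3 bulk RNA-seq libraries of 769-P were chosen, by their labels, from the 16 libraries of the series. One library came from cells with a control guide (sgCtrl), and 2 came from cells with a KDM5C guide, guide 4 or guide 5 (together sgKDM5C). All 3 populations carried a lentivirus with Cas9, a guide RNA and puromycin resistance and were puromycin-selected pools rather than clones, so that cells with different edits, or with none, could be present side by side. The other sgCtrl and sgKDM5C libraries of the series, from 786-O, CAKI-2 and A498, entered the comparisons between lines, and the sgKDM5D libraries contributed to the estimate of the spread only. The 2 guides served as the replicates of the mutant group. The control group had 1 library, so control values carry no SD and each ratio to the control uses that 1 library. Nothing states that the libraries came from separate cultures beyond the guides, and the p-values measure the spread between these libraries.

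KDM5C is a demethylase that removes methyl groups from di- and tri-methylated lysine 4 of histone H3 (H3K4), marks that are found at active promoters. It is encoded on chromosome X, is recurrently mutated in ccRCC, and is known both to repress promoters and to act at enhancers. It binds chromatin in part through its plant homeodomain (PHD) fingers, zinc-binding folds that read the tail of histone H3.

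Both guides were directed at exon 8 of KDM5C, which encodes part of the first PHD finger. The exon is shown because it is the intended site of the edits, which the counts do not measure. On GRCh37 it lies on the minus strand at chrX:53243871-53244029, is 159 bases long in the MANE Select transcript and is coding. It is printed with 20 intronic bases on each side (chrX:53243851-53244049), and the capitals mark the exon.
KDM5C exon 8: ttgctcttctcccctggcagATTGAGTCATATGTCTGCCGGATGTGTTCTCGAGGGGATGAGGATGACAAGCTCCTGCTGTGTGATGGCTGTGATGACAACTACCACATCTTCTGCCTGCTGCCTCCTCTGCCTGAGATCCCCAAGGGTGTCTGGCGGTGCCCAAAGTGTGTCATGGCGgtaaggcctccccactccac

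KDM5C transcript (ENSG00000126012, chromosome X, 53205465 to 53254604) was lower in both mutant libraries, at 239 CPM in sgCtrl, 83.7 CPM in sgKDM5C_4 and 118 CPM in sgKDM5C_5, where CPM is counts per M (10 to the power 6) of the TMM-scaled library. Guide 4 thus left 35.1% of the control level and guide 5 left 49.3%. In bulk samples, fewer expressing cells and less RNA per cell cannot be told apart, here and for the genes below. The fitted log2 fold change was -1.25 (SE 0.266, unadjusted p = 0.000359, edgeR quasi-likelihood test), and the Benjamini-Hochberg adjusted p was 1. The target therefore did not pass an adjusted threshold for 769-P in the main edgeR fit, although it went the way its label says in both libraries. With DESeq2 the adjusted p was 0.0395, and over the 11 alternatives tried it ran from 1.12e-06 to 1. It was under 0.05 in 3 of these 11, among them a fit of the 769-P libraries alone. In the other 3 lines together the log2 fold change of KDM5C was -1.07 (SE 0.154, edgeR adjusted p = 0.0315), and the difference of 769-P from them was -0.17 (SE 0.317, unadjusted p = 0.594). The 9 measured neighbours of KDM5C within 1 Mb, among them SMC1A of the cohesin ring and the ubiquitin ligase HUWE1, had ratios to the control between -0.39 and 0.22 with guide 4 and between -0.35 and 0.35 with guide 5 on the log2 scale, with unadjusted p from 0.303 to 0.933.

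The total counts were 25.5M in sgCtrl, 30.1M in sgKDM5C_4 and 25.3M in sgKDM5C_5, within the 23.4M to 41.6M of the series. Mitochondrially encoded genes took 5.83%, 6.80% and 5.46% of the counts. Markers of kidney tubule and carcinoma cells were summed as a description only, since no other line was set beside them. Their summed level was 3738 CPM, 4276 CPM and 3822 CPM in the same order, led by the intermediate filaments VIM and KRT8 and the renal transcription factor PAX8, and 2 of the 10, CA9 and NDUFA4L2, had 0 counts in all 3 libraries. Both are targets of hypoxia-inducible factors (HIF) in ccRCC. Markers of other cells were near 0. Endothelial markers summed to at most 0.371 CPM and immune markers to at most 0.247 CPM in any library. The fibroblast markers summed to 5.40 CPM, 9.67 CPM and 11.6 CPM, carried by PDGFRB and COL1A1, while THY1 and LUM had at most 1 count and PDGFRA had 0.

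The sgKDM5C_4 library stood apart from the other 2. The chi-square statistic of the counts per gene was 11.1 between sgCtrl and sgKDM5C_5, but 45.1 between sgCtrl and sgKDM5C_4 and 46.0 between both mutant libraries, so the libraries with different guides differed more than the guide 5 library and its control. The departure of guide 4 followed, in part, the GC content of the transcripts. Its median log2 ratio to the control was 0.51 in the decile of genes with the lowest GC content (27.8% to 38.0%) and -0.31 in the decile with the highest (61.2% to 78.9%). The median of the highest decile minus that of the lowest, the span, was -0.83 with guide 4 and -0.01 with guide 5. A smoothed trend over GC content was therefore also removed from each library, which left spans of 0.01 and -0.01, and values after this step are given as GC-corrected.

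**Figure D1:**
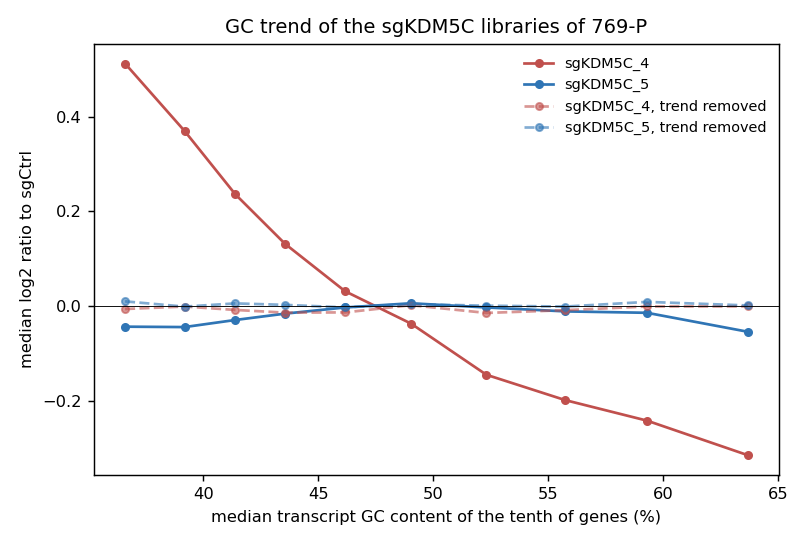
Median log2 ratio to sgCtrl (vertical axis) in deciles of 11680 genes ordered by transcript GC content (horizontal axis, %), for both mutant libraries before (solid) and after (dashed) removal of the trend. The sgKDM5C_4 line ran from 0.51 to -0.31, whereas the sgKDM5C_5 line stayed between -0.05 and 0.01.

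The effect of KDM5C mutation on single genes was tested by comparing both mutant libraries with the control across 20175 genes. At an adjusted p under 0.05, 1 gene was called (0.00496% of the genes tested), and it was lower. At an unadjusted p under 0.05, 464 genes were higher (2.3%) and 206 lower (1.02%). The study's thresholds (an unadjusted p under 0.05 together with a log2 fold change above 1 or below -1) were met by 293 genes that were higher (1.45%) and 128 that were lower (0.634%). DESeq2 called 8 genes at an adjusted p under 0.05, namely ENSG00000205246, KDM5C, GRAMD1B, FN1, LAMC3, ALPK2, CRYAB and ITIH5. Without sgKDM5C_5 edgeR called 21 genes, and without sgKDM5C_4 it called 0 (346 at the study's thresholds).

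The 1 gene called by edgeR was ENSG00000205246, for which the annotation used gave neither a symbol nor a position. It had 385 counts in sgCtrl, 83 in sgKDM5C_4 and 72 in sgKDM5C_5, or 15.9 CPM against 2.95 CPM and 2.96 CPM. Both mutant libraries lay at one level, far below the control. The gene fell in both mutant libraries, with a log2 fold change of -2.42 (SE 0.268, adjusted p = 0.00667 in edgeR). It had no transcript GC content and so no correction. In the other lines its log2 fold change was 0.13 (SE 0.171, unadjusted p = 0.463), and the difference of 769-P from them was -2.55 (SE 0.319, edgeR adjusted p = 0.0291). That difference was called in 5 of 10 alternatives, and its adjusted p was 0.0758 with the replicate block, 0.37 without sgKDM5C_4 and 0.0556 without sgKDM5C_5. The call within 769-P was kept in 10 of 11 alternatives and lost without sgKDM5C_4, where the adjusted p was 0.201, the highest of a range that began at 1.27e-11.

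Genes that moved the same way with both guides were then collected, since the guides are separate infections of the line. Of 13391 genes averaging 20 counts or more across the 3 libraries, 48 lay more than 1 above the control on the log2 scale with each guide (0.358%) and 8 lay more than 1 below it with each guide (0.0597%). After GC correction, which covered 13114 of these genes, 49 were higher with both guides (0.374%) and 5 were lower (0.0381%). Of the 48 higher genes, 44 were among the 49, and of the 8 lower genes, 5 were among the 5. Both ratios use the same control library, so a deviation of that library alone would move both. Each guide alone placed more genes beyond the same limit, 503 with guide 4 (385 higher, 118 lower) and 133 with guide 5 (91 higher, 42 lower). After GC correction guide 4 still placed 348 genes beyond it (260 higher, 88 lower), and guide 5 placed 127 (94 higher, 33 lower). Without that correction, the 2 mutant libraries differed from each other beyond this limit for 470 genes. In opposite directions with the 2 guides, 4 genes lay beyond this limit, and the shared control library by itself makes such opposite moves rarer.

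**Figure D2:**
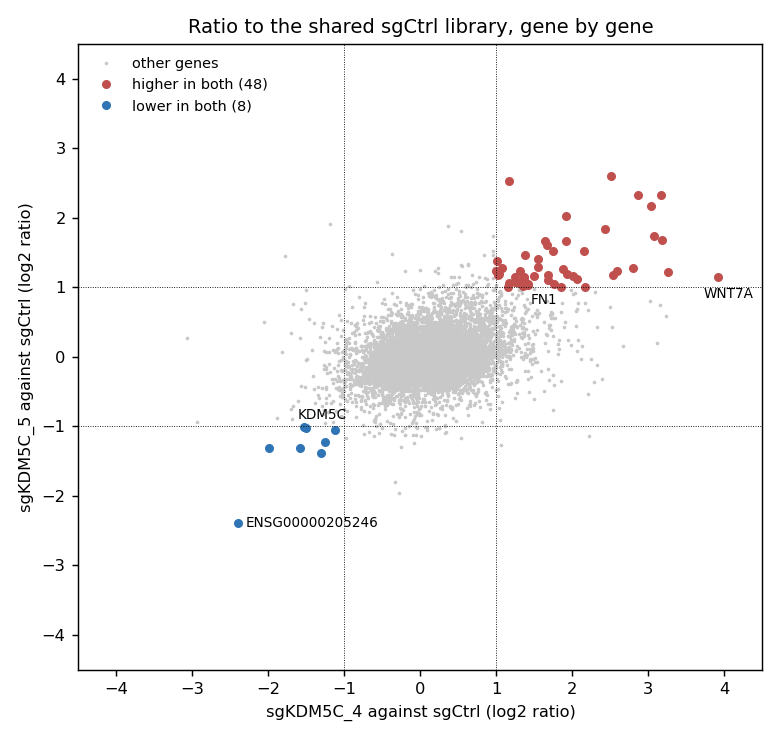
Each point is 1 of 13391 genes, with the log2 ratio to sgCtrl of sgKDM5C_4 on the horizontal axis and of sgKDM5C_5 on the vertical axis; dotted lines mark 1 and -1. The 48 higher and 8 lower genes are coloured, the cloud of other genes is wider along the guide 4 axis, and both axes share the control library.

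The higher genes were mostly of low abundance. Their median was 55 counts, against 631 over all 13391 genes, and 23 of the 48 had fewer than 20 counts in the control, so that they passed the minimum through the mutant libraries. Protein-coding genes made up 26 of the 48 (54.2%, against 86.6% of all 13391), long non-coding RNAs 13 (27.1% against 6.86%) and pseudogenes 7 (14.6% against 4.06%). The remaining 2 were an antisense RNA and RNU6-1, a copy of the U6 spliceosomal RNA. RNU6-1 and the processed pseudogenes closely resemble other genes, between which reads could be split. The median log2 ratio of the 48 genes was 1.67 with guide 4 and 1.23 with guide 5. The guide 4 ratio was the larger in 38 of them, and the medians were 1.63 and 1.25 after GC correction. The fold changes and p-values of these genes, given below, come from the contrast that selected them and are a description. At the limit, RPL41P5 lay just inside (1.0 with guide 5) and TCAM1P just outside (0.98 with guides 4 and 5).

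The higher protein-coding genes are described one by one, and whether they share a function was not tested. LAMC3, the gamma 3 chain of the laminins of basement membranes, had 1.77 CPM in sgCtrl, 5.69 CPM in sgKDM5C_4 and 5.8 CPM in sgKDM5C_5 (log2 fold change 1.69, SE 0.308, unadjusted p = 0.00014). The mutant libraries were alike, and the GC-corrected value was 1.87. ITIH5, a heavy chain of the inter-alpha-trypsin inhibitor family that binds hyaluronan, had 8.44 CPM, 34.2 CPM and 19.1 CPM (1.66, SE 0.43, unadjusted p = 0.002). S1PR1, the receptor for sphingosine 1-phosphate, had 10, 121 and 36 counts, and WNT7A, a secreted Wnt ligand, had 4, 98 and 11 counts. In both, most of the difference lay in the guide 4 library. EDN1, which encodes the vasoconstrictor endothelin-1, had the same form with 5, 72 and 14 counts. BMP6, a ligand of the transforming growth factor beta (TGF-beta) superfamily, had 2.02 CPM, 5.12 CPM and 4.85 CPM (1.30, SE 0.359, unadjusted p = 0.00348).

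Other higher genes had unlike roles. CRYAB, the small heat shock protein alpha-B crystallin, measured 22.9 CPM in sgCtrl, 73.2 CPM in sgKDM5C_4 and 49.3 CPM in sgKDM5C_5 (log2 fold change 1.42, SE 0.31, unadjusted p = 0.000425). ALPK2, an atypical alpha-kinase, measured 10.3 CPM, 24.4 CPM and 22.7 CPM (1.20, SE 0.237, unadjusted p = 0.000175). SYNPO, an actin-associated protein best known from podocytes, measured 23 CPM, 51.3 CPM and 46.3 CPM (1.08, SE 0.3, unadjusted p = 0.0028). In ALPK2 and SYNPO the mutant libraries were close to each other and more than 2 times the control. FERMT1, an activator of integrins, had 12, 58 and 54 counts. PDE11A, which hydrolyses cyclic nucleotides, had 61, 241 and 178 counts, and TEX19, a gene of the germline, had 33, 102 and 94 counts. UNC13C, of synaptic vesicle priming, had 50, 346 and 116 counts, and NKAIN4, which interacts with the sodium pump, had 52, 373 and 125 counts. SLC38A6, of the amino acid transporter family SLC38, had 66, 262 and 138 counts. In these last 3 the guide 4 library held well over the count of the guide 5 library. Over the 48 genes the fitted log2 fold changes ran from 1.08 to 3.56, none had an adjusted p under 0.05 in edgeR, and 44 had an unadjusted p under 0.05.

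Fewer genes were lower with both guides. Apart from ENSG00000205246 and KDM5C, they were GRAMD1B, FLG, TAS1R1, KLHL14, the pseudogene CLEC4OP and ENSG00000177764, which also had neither symbol nor position. GRAMD1B, a carrier of cholesterol at membrane contact sites, had 7.41 CPM in sgCtrl, 2.95 CPM in sgKDM5C_4 and 2.80 CPM in sgKDM5C_5 (log2 fold change -1.36, SE 0.264, unadjusted p = 0.000146, GC-corrected -1.30). FLG, which encodes filaggrin of cornified epithelium, had 7.17 CPM, 2.35 CPM and 2.84 CPM (-1.47, SE 0.489, unadjusted p = 0.00943). FLG shares its locus with the antisense gene FLG-AS1. In both genes the mutant libraries lay close together, below the control. TAS1R1, a taste receptor subunit, had 66, 34 and 31 counts, and its guide 4 ratio came inside the limit after GC correction.

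**Figure D3:**
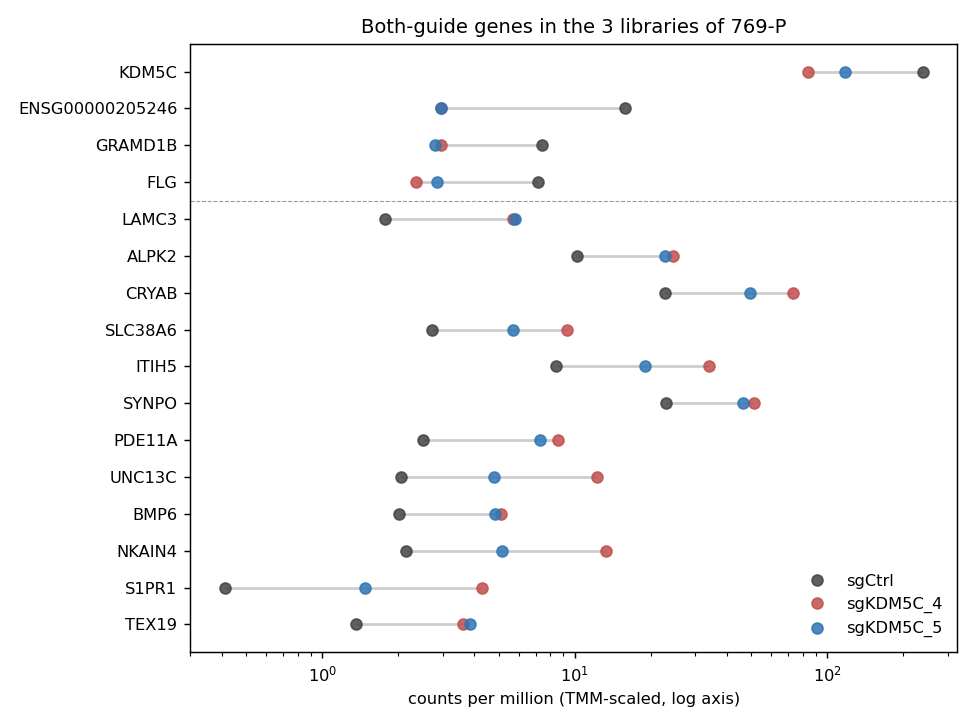
Level in each library of 769-P (CPM, log axis) of 4 lower genes, above the dashed line, and 12 higher genes, below it; each point is 1 library and the grey line spans the 3 libraries. By the choice of these 16 genes the control lay outside the pair of mutant libraries. In UNC13C, NKAIN4 and S1PR1 the mutant libraries lay apart from each other.

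Gene lists for ccRCC cells were described next by how many members lay more than 0.5 above or below the control with both guides. Over all 13391 genes 327 were higher by this measure (2.44%) and 99 lower (0.739%), and the median fitted log2 fold change of the genes tested was 0.02. At an unadjusted p under 0.05, the counts given for the lists stand against 2.3% higher and 1.02% lower over all 20175 genes tested. In edgeR no list held a gene at an adjusted p under 0.05. With DESeq2 FN1 of the mesenchymal list (adjusted p = 0.019) and KDM5C, a member of the lists of H3K4 enzymes and tumour suppressors (adjusted p = 0.0395), passed it.

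Of 15 mesenchymal genes tested, 4 were higher at an unadjusted p under 0.05 (2.3% of all genes tested) and 0 were lower (1.02%), 3 of the 12 with enough counts were higher with both guides by more than 0.5, and the median log2 fold change was 0.36. Over those 12 members the median was 0.57 with guide 4, 0.11 with guide 5 and 0.25 in the GC-corrected fit. FN1, the matrix glycoprotein fibronectin, was the most abundant of the 4, with 551 CPM in sgCtrl, 1389.8 CPM in sgKDM5C_4 and 1039 CPM in sgKDM5C_5 (log2 fold change 1.14, SE 0.256, unadjusted p = 0.000563, adjusted p = 1, GC-corrected 1.04). TAGLN, the actin-binding transgelin, had 25.1 CPM, 72.9 CPM and 37.4 CPM (1.14, SE 0.337, unadjusted p = 0.0046). TGFBI, an integrin-binding matrix protein, had 386 CPM, 552 CPM and 556 CPM (0.52, SE 0.218, unadjusted p = 0.0316). The fourth, ACTA2 of smooth muscle actin, was named after its values were seen and had 392, 1502 and 512 counts. On the log2 scale FN1 lay 1.33 above the control with guide 4 and 0.91 with guide 5. TGFBI lay 0.52 and 0.53 above it, just past the limit of 0.5. Most of the difference in TAGLN and ACTA2 lay in the guide 4 library. Other members of the list had no common direction. VIM had 41010, 73227 and 42401 counts, and the cadherin CDH2 had 9098, 12579 and 9654, while the transcription factor SNAI1 had 295, 216 and 325.

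Other genes of the matrix had mixed directions. Of 34 collagen genes 2 were higher and 2 lower at an unadjusted p under 0.05 (2.3% and 1.02% of all genes tested). COL1A1, a chain of type I collagen, had 26, 131 and 42 counts, and COL6A3, of type VI collagen, had 165, 58 and 88. Of 28 integrin genes 2 were higher and 0 lower. ITGB6, the epithelial integrin beta 6 chain, had 31.1 CPM, 84.3 CPM and 53.2 CPM (1.14, SE 0.429, unadjusted p = 0.0184). Of 37 matrix proteases and inhibitors 2 were higher and 0 lower, with the collagenase MMP1 at 346, 1674 and 562 counts. MMP7, another protease, had 15, 37 and 22 counts (unadjusted p = 0.498). The other members counted, named after their values were seen, were COL4A1 (higher), COL14A1 (lower, with 2 counts in sgCtrl and 0 in both mutant libraries), ITGAV and SERPINE2 (both higher). The summed fibroblast markers given above were higher with both guides, most with guide 5, and COL1A1 is also in the collagen list. Of the 9 markers listed 5 were tested, and COL1A1 and PDGFRB, with 103, 141 and 240 counts, were above the control with both guides, while THY1, LUM and PDGFRA had at most 1 count in any library. The part of such cells in the result was not tested.

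Ligands and their binding proteins followed. Of 22 genes of the TGF-beta and BMP pathways, 3 were higher at an unadjusted p under 0.05 and 0 were lower (2.3% and 1.02% of all genes tested, here and for the next lists), and the median was 0.18. Besides BMP6 these were LTBP2, a latent TGF-beta binding protein of microfibrils, with 291, 479 and 566 counts (log2 fold change 0.75, SE 0.277, unadjusted p = 0.0173), and the ligand TGFB3 with 18, 94 and 32 counts. LTBP2 had its larger value with guide 5. Among 14 genes of the insulin-like growth factor (IGF) axis, 1 was higher, IGFBP3, which binds IGFs in the circulation and at cells, with 14.2 CPM, 39.9 CPM and 27.9 CPM (1.26, SE 0.449, unadjusted p = 0.0142). Among 12 members of the EGF family list, 1 was lower, the ligand AREG, with 31.4 CPM, 9.57 CPM and 18.7 CPM (-1.15, SE 0.378, unadjusted p = 0.00868). CCN2, a matricellular immediate early gene, had 92, 233 and 158 counts (0.97, SE 0.425, unadjusted p = 0.0395). The Wnt list held 1 higher gene of 23, WNT7A, and the Notch list 1 of 18, the ligand JAG1, named after its values were seen, with 11145, 26021 and 13622 counts. DLL3, a Notch ligand, had 15, 26 and 22 counts (0.56, SE 0.543, unadjusted p = 0.317).

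Metabolic and stress genes differed one by one. HMOX1, the haem-degrading oxygenase and a target of the oxidant-responsive factor NRF2, had 70.9 CPM in sgCtrl, 128 CPM in sgKDM5C_4 and 106 CPM in sgKDM5C_5 (log2 fold change 0.72, SE 0.244, unadjusted p = 0.0103). The median of the NRF2 list was -0.09 over 19 genes. SRXN1, another member, was named after its values were seen and had 23, 2 and 8 counts. PHGDH, the first enzyme of serine synthesis, had 136, 79 and 60 counts (-1.08, SE 0.278, unadjusted p = 0.00188). DDIT4, an inhibitor of the growth kinase mTORC1, had 423, 286 and 287 counts (-0.67, SE 0.323, unadjusted p = 0.0585). PHGDH and DDIT4 were the 2 of 24 ATF4 stress genes with enough counts that were lower with both guides by more than 0.5. CUBN, the endocytic receptor cubilin of the proximal tubule, had 17.8 CPM, 41.5 CPM and 28.3 CPM (0.97, SE 0.293, unadjusted p = 0.00498), and it was the 1 of 15 proximal tubule genes that was higher at that threshold.

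Many lists held few or no genes past an unadjusted p of 0.05. There were 0 of 42 S-phase genes (median -0.09), 0 of 54 G2/M genes (0.03), 0 of 22 HIF targets (0.03), 0 of 20 p53 targets (0.00), 0 of 14 MHC class I genes (-0.25) and 0 of 16 epithelial genes (0.18). The MHC class I genes had medians of -0.34 with guide 4 and -0.14 with guide 5, and -0.13 after GC correction, with a median GC content of 54.5% against 48.4% over all genes tested. Among 29 interferon-stimulated genes 0 were higher and 1 was lower, and among 18 H3K4 methylation enzymes 1 was lower, KDM5C itself, and 0 were higher. Nuclear oxidative phosphorylation genes had 1 higher of 80, and cytosolic ribosomal protein genes had 1 higher and 1 lower of 85. RPL36A of the latter had 43, 91 and 70 counts, and it shares its locus with GLA on the other strand. NDUFV2, a subunit of respiratory complex I, had 13, 31 and 27 counts (unadjusted p = 0.0564), and CPLX1, a presynaptic protein of the list of REST targets, had 40, 17 and 27 (unadjusted p = 0.0356). HOXA5, a homeobox gene, had 18, 35 and 39 counts (unadjusted p = 0.0358) and was the 1 higher gene among 35 HOX genes. Single genes reached the same threshold among 23 cholesterol synthesis genes (MVD, lower), 19 G1 cyclins and inhibitors (CDK6, higher), and 13 mitochondrially encoded genes (MT-ND3, higher), and among 23 immediate early genes JUNB was higher with CCN2 while FOS was lower. These genes, together with OAS3 of the interferon list, NDUFA5 of oxidative phosphorylation and RPL3L (lower) of the ribosomal list, were named after their values were seen. None of 20 NF-kB chemokines and cytokines, 18 X chromosome escape genes, 16 kidney lineage transcription factors, 17 replication-dependent histone genes, 37 clustered protocadherin genes, 5 germline genes or 4 metallothionein genes reached that threshold.

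**Figure D4:**
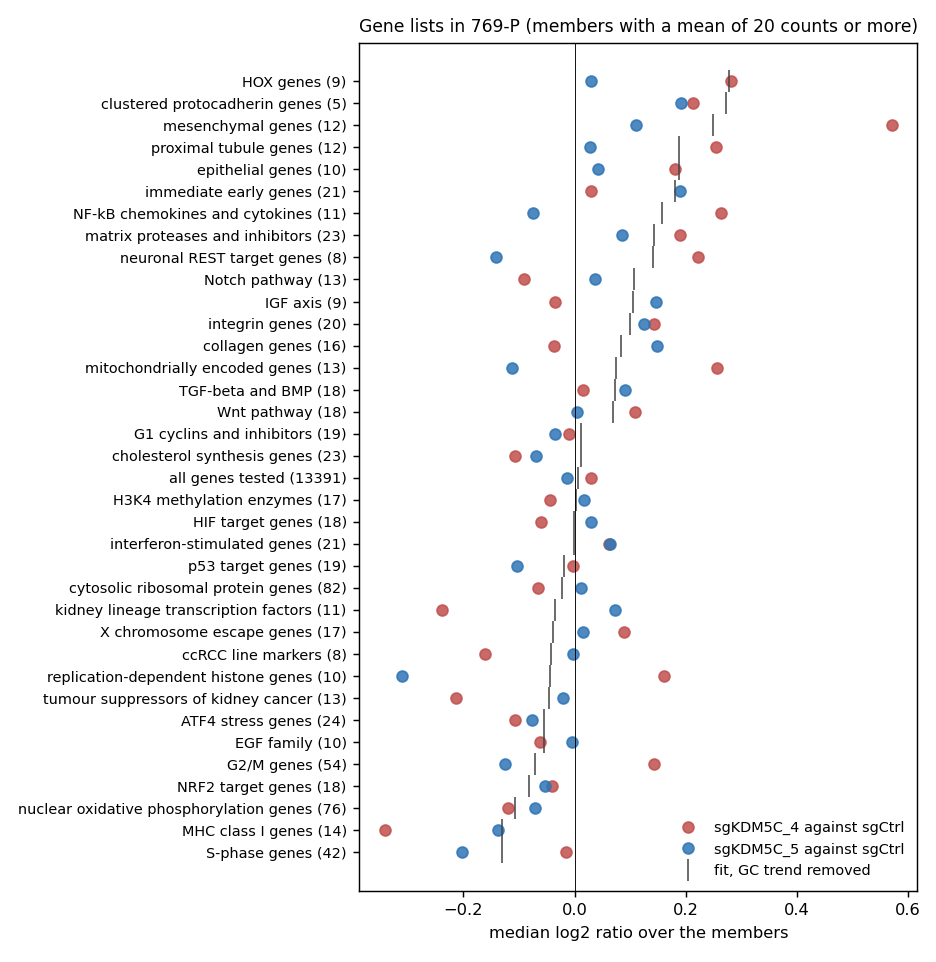
Median log2 ratio to sgCtrl over the members of each list averaging 20 counts or more (number in brackets), for lists with at least 5 such members, for each guide (points) and for the GC-corrected fit (tick). Of the lists drawn, the mesenchymal list had the highest median with guide 4 (0.57), and for G2/M genes the 2 guides lay on opposite sides of 0.

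Along the genome the shifts were small. After GC correction the chromosome medians lay between -0.09 and 0.12 with guide 4 and between -0.09 and 0.06 with guide 5. In 281 windows of 40 neighbouring genes the medians ran from -0.15 to 0.23 with guide 4 and from -0.14 to 0.10 with guide 5. Some chromosomes moved as a whole within these limits. With guide 4 all 16 windows of chromosome 3 and all 9 of chromosome 14 lay above 0 (chromosome medians 0.12 and 0.11), and the first 8 windows of chromosome 3 lay between 0.09 and 0.19. With guide 5 all 7 windows of chromosome 22 lay below 0, between -0.14 and -0.03 (chromosome median -0.09). Chromosome 16 had a median below 0 with both guides, -0.09 with guide 4 and -0.06 with guide 5. The median of chromosome 20 was -0.08 with guide 4, and that of chromosome 13 was 0.06 with guide 5. The higher genes lay on 19 of 23 chromosomes, with at most 4 on 1 chromosome.

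Some genes differed between the mutant libraries rather than from the control. By the largest difference between the guides among genes with at least 100 counts, HPGD had 59 counts in sgCtrl, 365 in sgKDM5C_4 and 47 in sgKDM5C_5. HPGD encodes the enzyme that inactivates prostaglandins. TMA7 had 53, 307 and 41 counts, EID1 had 290, 1688 and 267, and TMED7, of the p24 family of cargo receptors, had 356, 1955 and 350. In these 4 genes guide 5 lay near the control and guide 4 far above it. SLC35G3 had 512, 1236 and 213 counts. In the opposite direction, UBBP4 had 192, 77 and 378 counts, RBMXL2 had 269, 87 and 284, LINC00384 had 103, 56 and 157, NDUFB8 had 108, 75 and 187, and RNASET2 had 334, 231 and 551. TMA7, EID1, TMED7 and NDUFB8 each share their locus with a gene on the other strand. UBBP4 is a pseudogene of a ubiquitin gene. After GC correction the guide 4 ratio to the control was still 2.0 for HPGD, 2.47 for TMA7, 1.98 for EID1 and 1.70 for TMED7.

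Whether the genes of 769-P moved in the other lines was examined in the 9 sgCtrl and sgKDM5C libraries of 786-O, CAKI-2 and A498, which did not enter the choice of the genes. Of the 48 higher genes, 37 had counts in every group and could be compared, and 26 of these had a positive mean log2 fold change (70.3%, against 56.1% of all such genes). At an unadjusted p under 0.05, 9 of the 37 were higher (24.3%, against 2.75%) and 0 were lower (1.05% of all such genes were lower). They were ALPK2, CRYAB, SYNPO, PHEX, ASTL, LINC02274, ABCA17P, KRT223P and RNU6-1, and their values in the other lines were chosen for naming after they were seen. The genes set beside the 37 were not matched to them for abundance or gene type. The spread behind these p-values was estimated from all 16 libraries, those of 769-P included. ALPK2 had a log2 fold change of 0.37 over the other lines (SE 0.137, unadjusted p = 0.017), with 0.34 in 786-O, 0.27 in CAKI-2 and 0.50 in A498, and so lay on the same side in each line. CRYAB had 0.76 (SE 0.299, unadjusted p = 0.0231), made up of 1.62 in 786-O, where its level was under 1 CPM, 0.03 in CAKI-2 and 0.64 in A498. SYNPO had 0.39 (SE 0.163, unadjusted p = 0.0325). Of the 8 genes lower in 769-P, 6 could be compared, and 4 of these had a positive mean log2 fold change (66.7%, against 56.1%). At an unadjusted p under 0.05, 1 of the 6 was lower, KDM5C itself (1.05% of all such genes), and 1 was higher (2.75%). The latter was TAS1R1, which went the opposite way to 769-P at 0.92 (SE 0.209, edgeR unadjusted p = 0.000627).

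The guide 4 library of 786-O was high for several of the 9 genes. There SYNPO had 1141 CPM in sgCtrl, 2100.0 CPM in sgKDM5C_4 and 1139.5 CPM in sgKDM5C_5. PHEX had 1.84 CPM, 8.27 CPM and 2.77 CPM, KRT223P 1.17 CPM, 9.06 CPM and 2.37 CPM, and LINC02274 5.42 CPM, 17.3 CPM and 6.75 CPM. Without this library 9 of the 34 genes that could be compared were higher (26.5%, against 3.41% of all such genes) and 7 of these were among the former 9, with SYNPO and CRYAB no longer past the threshold. Without the guide 5 library of 786-O the count was 14 of 37 (37.8%, against 5.91%), and with any other 1 mutant library of these lines left out it was 8 or 9. These counts were added after the data were seen.

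The next genes were chosen for their values in 769-P, which also enter the difference from the other lines, so that the differences are a description. FN1 had a mean log2 fold change of 0.01 in the other lines (SE 0.14), which averaged unlike values of -0.43 in 786-O, 0.0067 in CAKI-2 and 0.45 in A498. In A498 it had 264 CPM in sgCtrl, 305 CPM in sgKDM5C_4 and 415 CPM in sgKDM5C_5, above the control with both guides as in 769-P. The difference of 769-P from the mean was 1.13 (SE 0.289). TAGLN had -0.38 in 786-O, -0.56 in CAKI-2 and -0.41 in A498, below the control in each, and a difference of 1.59 (SE 0.4). For SLC38A6 the difference was 1.59 (SE 0.409), for HMOX1 1.04 (SE 0.279), for CUBN 1.06 (SE 0.352), for ALPK2 0.83 (SE 0.268), for CRYAB 0.66 (SE 0.465) and for FLG -2.08 (SE 0.6). None of these 8 differences passed the adjusted threshold in edgeR. LAMC3, UNC13C, BMP6 and WNT7A had 0 counts throughout a group of another line, and their difference was not calculated.

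**Figure D5:**
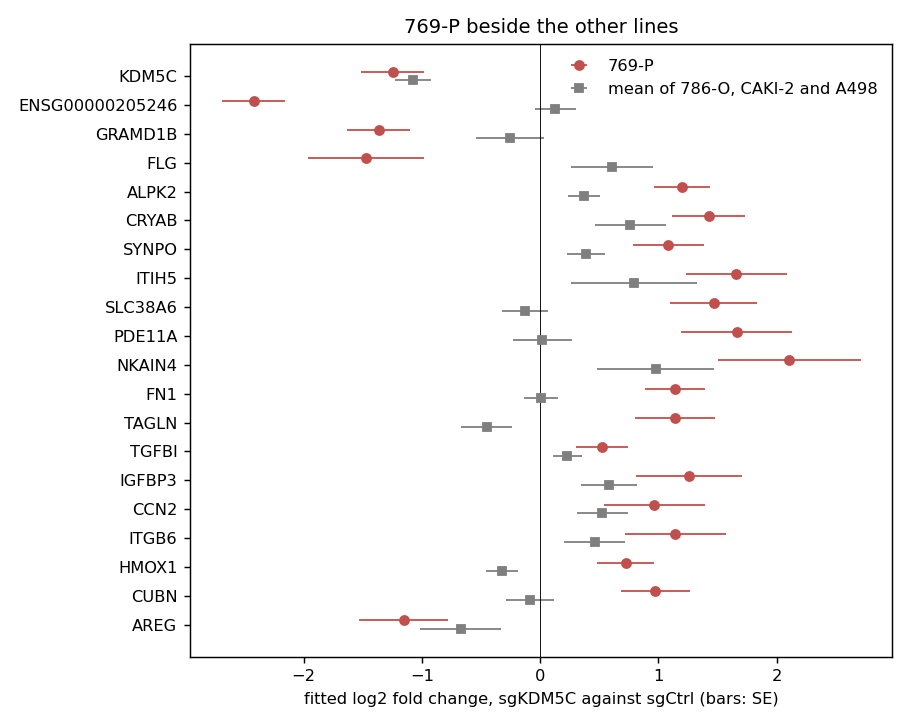
Fitted log2 fold change of sgKDM5C against sgCtrl in 769-P (circles) and the mean over 786-O, CAKI-2 and A498 (squares), with bars of 1 SE on each side. KDM5C lay at -1.25 in 769-P and -1.07 in the other lines, whereas ENSG00000205246 lay at -2.42 in 769-P and 0.13 in the others.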

How the data were processed

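RNA was isolated with the NucleoSpin kit, libraries were made with the TruSeq Stranded kit, and paired-end reads were sequenced. Per the submitters' processing notes, reads were trimmed with Trimmomatic 0.38 and aligned with STAR 2.5.2b to GRCh37. The counting tool, its strand setting and the annotation are not given in the sources used here. Besides the genes marked above, BMP6, SLC38A6, TAGLN, TGFB3, HOXA5 and NDUFV2 also share their locus with a gene on the other strand. HOXA5 overlaps HOXA3 on its own strand as well. The authors deposited raw read counts per gene for 16 libraries and 57773 genes. Of the gene IDs, 55538 matched the GENCODE annotation lifted to GRCh37, from which symbols, positions and transcript GC content were taken, and 581 of the 20175 genes tested did not match.

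Genes with a sum under 60 counts over the 16 libraries were left out, as in the study. The main test was edgeR 4.0.16 (R 4.3.3, quasi-likelihood F-test, TMM scaling, 1 mean per line and genotype, 10 groups, all 16 libraries, 6 residual degrees of freedom), with Benjamini-Hochberg adjusted p-values over all genes tested. With 1 control per line, the spread came from the pairs of guides in 6 groups, and the sgCtrl libraries were assumed to vary likewise. The biological coefficient of variation was 15.2%. Ratios of single libraries used log2 CPM with a prior count of 2, which understates the change of low genes. The GC trend was a lowess curve (span 0.3) of each library's deviation from its line mean over genes averaging 50 counts or more, entered as offsets. The test and the GC step were tested on simulated data. DESeq2 1.42.0 was an alternative.

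The members and the gene lists were chosen with earlier results of these data known. Named genes were KDM5C, genes at an adjusted p under 0.05, and per direction up to 12 protein-coding genes past the study's thresholds, beyond 1 with both guides before and after GC correction and averaging 50 counts or more. They also included up to 3 members per list beyond 0.5 with both guides, genes that differed from the other lines at an adjusted p under 0.05, and the 5 genes per direction with the largest difference between the guides; 1 gene is not reported here. Guides 4 and 5 bear the same numbers in all lines. The correlation of the guide 4 minus guide 5 differences of 769-P was 0.12 with 786-O, 0.29 with CAKI-2 and -0.22 with A498. The numbers were not taken to pair the libraries in the main fit. These correlations cannot decide whether a guide effect is shared, since the GC trend of guide 4 enters them.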

Additional observations from a re-analysis of the deposited data

Results flagged for a closer look

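ENSG00000205246 differed between 769-P and the other lines in its response to the KDM5C guides. The log2 fold change in 769-P minus the mean of 786-O, CAKI-2 and A498 was -2.55 (SE 0.319, edgeR adjusted p = 0.0291, lower in 2 of 2 mutant libraries of 769-P). Its level was 15.9 CPM in the 769-P control and 2.95 CPM and 2.96 CPM in the mutant libraries, and 29.7 CPM, 30.5 CPM and 31.0 CPM in the control, guide 4 and guide 5 libraries of CAKI-2. In 786-O the same 3 libraries had 3.05 CPM, 3.31 CPM and 3.92 CPM, and in A498 2.13 CPM, 2.78 CPM and 1.75 CPM, so the mutant libraries of 769-P lay at the level of those 2 lines. The difference rests on 1 control library of 769-P, and it was called in 5 of 10 alternatives, but not without sgKDM5C_4, without sgKDM5C_5, in the 12 sgCtrl and sgKDM5C libraries or with the guide number as a block.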

How the results depend on the processing

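The 1 gene at an adjusted p under 0.05 in edgeR was joined by others or lost under other settings. There were 8 genes with DESeq2, 70 with no filter beyond 1 count, 23 in a fit of the 769-P libraries alone, and between 0 and 21 with 1 mutant library left out, 0 of them without sgKDM5C_4. It was 1 with RLE size factors, filterByExpr, the 12 sgCtrl and sgKDM5C libraries, GC correction and the replicate block. The 421 genes at the study's thresholds became 177 with DESeq2, 660 with no filter, 164 in 769-P alone (143 higher, 21 lower) and 346 to 787 with 1 mutant library left out, where guide 4 alone gave the 787. The block for guide number left 334 of that size, 324 with GC correction. The 1 gene that differed from the other lines gave 18 with no filter, 0 in the 12 libraries, 0 with the replicate block, 0 with the block and GC correction, and 0 to 3 with 1 mutant library left out. The 5 genes called over the other 3 lines became 24 with DESeq2, 74 with no filter and 2 with the block and GC correction. The guide numbers were not taken to pair the libraries in the main fit, so the block is given as an alternative. Whether a guide effect is shared between lines was not tested. The cause of these shifts was not tested.

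The 56 genes beyond 1 with both guides became 66 with a prior count of 0.5, 37 with a prior count of 5, 426 at a limit of 0.5, 14 at 1.5 and 29 at an average of 50 counts or more. The GC span of guide 4 stayed between -0.83 and -0.82 with other scaling and abundance limits. Of 550 alternative values of named genes, 490 kept their direction and call, 48 passed the threshold in addition, 1 lost it and 11 reversed. LINC00384 was 0.0196 after GC correction. With 1 mutant library left out, the log2 fold change ran from -0.31 to 2.42 for HPGD, from -0.35 to 2.32 for TMA7, from -0.10 to 2.33 for EID1, from -1.25 to 1.06 for SLC35G3, from -0.0076 to 2.25 for TMED7, from -1.53 to 0.99 for UBBP4, from -1.84 to 0.10 for RBMXL2, from -1.09 to 0.62 for LINC00384, from -0.73 to 0.81 for NDUFB8 and from -0.74 to 0.74 for RNASET2. Of 195 alternative medians of the lists, 46 moved by more than the spread between the guides. The library depth limits low genes most, since 1 count in sgCtrl is a large share of the control value of genes such as WNT7A with 4.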
